A study of Mus musculus with 3 samples.

Results

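Transcripts of hepatocytes, the parenchymal cells of the liver, were examined in an RNA sequencing library of Kupffer cells, the macrophages of the liver sinusoids. The set held 33 genes named by symbol, out of 24453 genes in the deposited table, and each was represented by its longest coding RefSeq transcript. They were chosen by name as genes that hepatocytes are known to express, with earlier results of these data known. The liver library was set against libraries of cardiac and of renal macrophages.

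All 3 libraries came from C57BL/6 mice aged 8 weeks, with no treatment or mutation named, with 1 library per tissue (heart, liver and kidney). Cells were sorted by flow cytometry for CD11b and F4/80, surface proteins of macrophages, and against Ly6G and Ly6C, which mark neutrophils and monocytes. The same gate was applied to every tissue. The labels do not say how many mice stand behind a library, their sex or whether cells were pooled. With 1 library per tissue no test was possible, so the values describe these libraries and carry counting intervals only.

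Hepatocytes make most of the proteins of blood plasma, among them albumin, transport proteins, apolipoproteins, antitrypsin and fibrinogen. They also carry out the urea cycle, gluconeogenesis, amino acid breakdown and drug oxidation. Kupffer cells lie in the sinusoids beside them and are not known as a main source of these proteins.

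Levels are given as RPKM, which scales reads to exon length and to 1000000 counted reads. Comparisons between genes rest on this scaling alone, and other differences between genes in amplification or counting were not tested. Sets of 3 values follow the order heart, liver, kidney. With 1 transcript per gene, the reads recovered from these values numbered 8751978, 10373696 and 9485368. Parentheses give exact 95% Poisson intervals or the exact interval of a ratio. PCR copies were not told apart, so all intervals cover counting error only. A gene was called higher in the liver library at a difference of at least 2 log2 units on log2(RPKM + 1), which is 4-fold on that scale and understates the change of low genes. For a library with 0 reads, 3 reads were put in its place and the fold is written as at least that size.

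The liver library carried the markers of its label. All 9 Kupffer cell markers reached 1 RPKM there, led by Clec4f at 572 RPKM and Cd5l at 472, and both had 0 reads in the heart and kidney libraries. The list summed to 502, 3000 and 5.63 RPKM, and all 9 were highest in the liver. Most of the heart sum was Folr2, at 311, 355 and 2.1, Timd4, at 148, 340 and 0, and Vsig4, at 41.5, 455 and 0. All 10 pan-macrophage markers reached 1 RPKM in each library, with sums of 2549, 2440 and 2329 RPKM. Genes of other liver cells were present beside the hepatocyte genes. Of 12 markers of sinusoidal endothelium, 12 reached 1 RPKM in the liver, and they summed to 702, 444 and 415 RPKM, led in the liver by Clec4g at 1.24, 129 and 0. Lyve1, at 336, 15.1 and 0, and Fcgr2b, at 326, 87.4 and 308, made up most of the heart sum. Fcgr2b and Dnase1l3, at 5.31, 91.4 and 91.6, made up most of the kidney sum. Of the 12, 8 were highest in the liver, among them Stab2 at 0, 57.5 and 0, 3 in the heart and 1 in the kidney. All 9 markers of lymphocytes and plasma cells reached 1 RPKM in the liver, with sums of 5.65, 240 and 0.049, led by Jchain at 0, 82 and 0 RPKM. Of 6 erythroid markers 4 did, with sums of 56.4, 310 and 191 and with Alas2 at 0 reads in the liver. Hbb-b1 and Hbb-bs, with 1251 and 1247 liver reads, have nearly the same coordinates in the deposited table. The same holds for Hba-a1 and Hba-a2, with 345 and 340, so these sums largely count the same reads more than 1 time. Of 10 stellate cell and fibroblast markers 5 reached 1 RPKM in the liver, with sums of 137, 31.2 and 7.19. Reln, Col3a1 and Pdgfrb had 0 reads there. Of the 7 cholangiocyte markers 6 had 0 reads in the liver library, among them Krt7, Krt19, Epcam, Sox9 and Cldn7, and the list summed to 71, 7.64 and 190. Spp1, at 70.8, 7.64 and 180, made up most of each of these sums. The part of these other cells in the values below was not tested. In sorted bulk samples, fewer cells of a type and less RNA per cell cannot be told apart.

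Of the 33 hepatocyte genes, 18 were called above both others in the liver library, where 3.24% of the 11482 genes that reached 1 RPKM in some library were. Against the heart alone 18 were called, where 7.13% of genes were, and against the kidney alone 20, where 5.1% were. The 2 genes called against the kidney and not the heart were Ambp and Ttr, which had reads in the heart library. The 18 called above both include the 5 near-identical copies of Serpina1, so the count is not one of independent genes. With the copies summed as 1 gene, 14 of 29 were called above both. Of the 33, 0 were called lower than in both others, where 2.58% of genes were, 0 lower than in the heart (5.33% of genes) and 0 lower than in the kidney (7.57% of genes). These counts of 0 say little. Of the 33 genes, 26 had 0 reads in the heart library and 23 in the kidney library, and such a gene cannot be called lower in the liver. In the liver library 27 of the 33 had RPKM of at least 1, against 4 in the heart and 4 in the kidney library. A total of 28 passed the filter of RPKM of at least 1 in some library. The median difference over all 33 was 2.63 log2 units against the heart and 2.63 against the kidney, or 2.40 and 2.42 with values of 0 reads set at the floor. Over the 11482 genes the medians were 0.16 and -0.04.

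**Figure D1:**
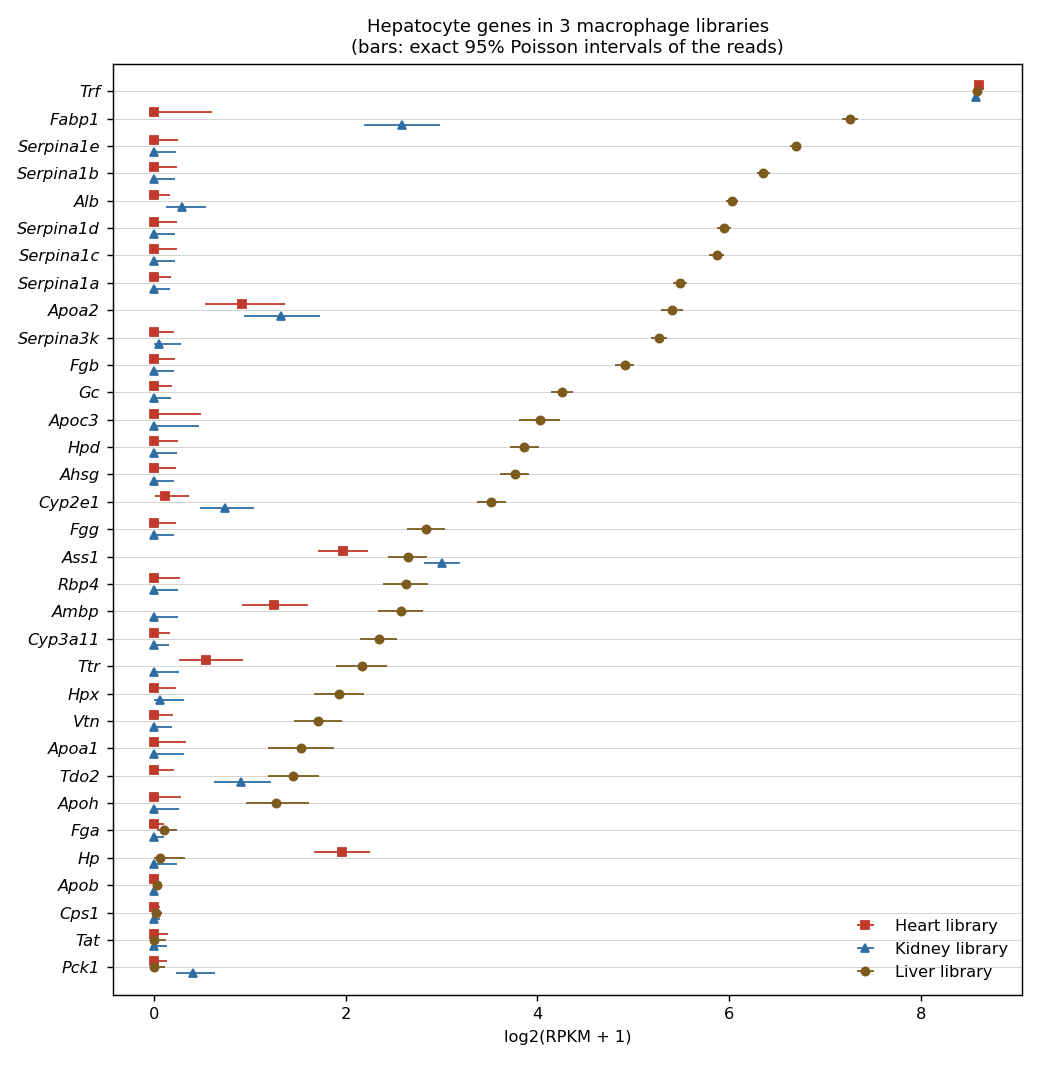
Levels of the 33 genes as log2(RPKM + 1) in the heart (red squares), liver (brown circles) and kidney (blue triangles) library, ordered by the liver level, with bars for exact 95% Poisson intervals. Trf lies together in all 3 libraries, Fabp1 to Apoh lie above 1 RPKM in the liver, and the last 6 genes lie near 0 there, with Hp highest in the heart and Pck1 in the kidney.

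Together the 33 genes took 0.307% of the liver reads (0.303% to 0.31%), against 0.15% in the heart and 0.148% in the kidney library. Most of these reads in the heart and kidney libraries belonged to a single gene, Trf. Without Trf, a set chosen after the values were seen, the other 32 genes had 170, 16946 and 296 reads. Their share was then 0.163% of the liver reads, 84.1-fold (72.3 to 98.4) that of the heart and 52.3-fold (46.7 to 58.9) that of the kidney library. The 5 copies of Serpina1 supplied 50.3% of these 16946 reads, Alb 13% and Fabp1 7.31%. How reads shared among these copies were counted is not known, and the parts, the total and the folds carry that doubt. Without Trf and the 5 copies the share was 0.0813% of the liver reads, against 0.00194% in the heart and 0.00312% in the kidney library.

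Trf encodes transferrin, the iron carrier of plasma, and is transcribed in other cells as well as in hepatocytes. Its levels were 388, 384 (378 to 390.5) and 382 RPKM, nearly the same in all 3 libraries. Against the heart it was 1.01-fold lower (0.987 to 1.03), and against the kidney 1.01-fold higher (0.983 to 1.03), a direction that turned under TPM and median ratio scaling. It had 5.61, 6.43 and 5.94 reads per base of exon across heart, liver and kidney, which only 40, 31 and 25 of the 24453 genes reached, Trf included. The authors' counting limited the tags at a position to 3, and Clec4f reached 9.58 reads per base in the liver. The part of this limit in the level of Trf was not tested. The gene lies on mm10 chromosome 9, 103208876 to 103230286. It shares 63.5% of its annotated exon bases with the readthrough model Gm20425, from which its reads cannot be told apart.

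Among the other carriers of plasma, Alb led. Alb encodes albumin, the most abundant plasma protein, and lies on chromosome 5, 90460870 to 90476602. Its levels were 0, 64.3 (61.7 to 67.1) and 0.22 RPKM, from 0, 2201 and 7 reads. Alb in the liver was thus at least 634-fold higher against the heart and 292-fold (141 to 727) higher against the kidney. Alb ranked 1280 among all genes of the liver library. Clec4f, at 572 RPKM, stood far above it.

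Gc, the vitamin D-binding protein, stood at 18.1 RPKM (16.6 to 19.7) in the liver library, with 0 reads in both others. Ahsg, which encodes fetuin-A, an inhibitor of calcium phosphate precipitation, stood at 12.6 (11.2 to 14.0), also with 0 reads in both others. Against the heart, Gc was at least 157-fold and Ahsg at least 91.3-fold higher. Rbp4, the retinol carrier, stood at 5.18 RPKM (4.24 to 6.25), had no read elsewhere and was called as well. Of the 10 carriers and binding proteins, Alb, Gc, Ahsg and Rbp4 were called against both other libraries.

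The remaining carriers were lower. Ambp, the precursor of alpha-1-microglobulin and bikunin, stood at 1.38, 4.95 and 0 RPKM across heart, liver and kidney, and its liver level was 3.59-fold (2.30 to 5.80) that of the heart. Ttr, the carrier of thyroid hormone that also binds Rbp4, stood at 0.455, 3.49 and 0 RPKM, 7.67-fold (3.69 to 18.4) above the heart library. Hpx, which binds free heme, stood at 0, 2.81 and 0.044 RPKM, and Vtn, an adhesion protein, at 0, 2.27 and 0. Neither Hpx nor Vtn reached the threshold on log2(RPKM + 1), though with 69 and 66 reads in the liver and at most 1 in any other library both stood highest there.

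Hp went the other way. It encodes haptoglobin, which binds free hemoglobin and pairs in function with Hpx. It had 56, 1 and 0 reads, or 2.89, 0.045 and 0 RPKM. Its liver level was 64.3-fold (11.2 to 2606) lower than its heart level. At a difference of -1.90 log2 units it was not called. From a heart level of 2.89 RPKM, not even 0 liver reads would have reached the threshold on log2(RPKM + 1).

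Upstream sequence is shown for Alb, Gc and Fabp1, called genes of different functions with 0 reads in the heart library, because each holds the letters GTTAAT. Of the 33 genes 27 matched the RefSeq promoter table (build GRCm38.p6). The 150 bases before the annotated start are given 5′ to 3′, and capitals mark these letters.
Alb, chr5:90460720-90460869, plus strand: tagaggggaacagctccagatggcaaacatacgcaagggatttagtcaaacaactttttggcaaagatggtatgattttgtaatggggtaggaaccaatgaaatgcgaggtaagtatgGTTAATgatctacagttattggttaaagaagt
Gc, chr5:89457899-89458048, minus strand: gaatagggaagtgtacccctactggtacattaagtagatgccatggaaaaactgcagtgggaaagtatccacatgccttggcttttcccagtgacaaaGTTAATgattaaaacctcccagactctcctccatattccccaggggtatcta
Fabp1, chr6:71199729-71199878, plus strand: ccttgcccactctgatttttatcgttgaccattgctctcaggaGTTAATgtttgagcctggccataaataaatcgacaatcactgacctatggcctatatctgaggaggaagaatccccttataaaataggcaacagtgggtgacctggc
In these genes the match began 32, 52 and 107 bases before the start, which in Fabp1 lies 9 bases from the start in the deposited table. Within 250 bases before the start, GTTAAT on either strand was found in 12 of the 27 genes, where 6.43% of all 32851 promoters in the table held it, but 5 of the 12 are the near-identical copies of Serpina1. The others were Alb, Fabp1, Fga, Fgb, Gc, Pck1 and Vtn. The match stood in Fga and Pck1, which had 4 and 0 liver reads, as well as in called genes. The forkhead letters TGTTTNC were in 17 of the 27 (17.8% of all promoters), CCAAT in 14 (33.8%), TATAAA in 6 (12.4%) and AAAGTCCA, a form of the site of hepatocyte nuclear factor 4, in 2 (1.01%). The 5 copies of Serpina1 are among the 17 and among the 14 too, so these counts are not of independent genes either. In the 5 copies CCAAT on the opposite strand overlaps GTTAAT by 1 base. These are matches of letters only.

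By summed RPKM, serpins were the most abundant group after Trf, a sum that depends on how reads of their near-identical copies were counted. All 6, the 5 copies of Serpina1 that encode antitrypsins and Serpina3k, a related inhibitor called contrapsin, were called above both other libraries in the liver. None had a read in the heart library, and in the kidney library only Serpina3k had 1. Serpina1e stood at 103 RPKM (98.6 to 107), Serpina1b at 81 (77.5 to 84.7), Serpina1d at 60.8 (57.7 to 64.0), Serpina1c at 57.5 (54.5 to 60.6) and Serpina1a at 43.8 (41.6 to 46.2) in the liver library. The intervals of Serpina1d and Serpina1c overlap, and those of the other neighbours in this order do not. The bound for Serpina1e was at least 677-fold against the heart and at least 728-fold against the kidney library. Serpina3k stood at 0, 37.6 (35.3 to 39.9) and 0.039 RPKM across heart, liver and kidney.

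The copies lie in tandem on chromosome 12, from 103728156 for Serpina1b to 103956897 for Serpina1e, all on the minus strand. Their coding sequences, taken as the longest open reading frame of GENCODE M21 transcripts, were 96.3% to 98.5% identical over the 10 pairs. The stretch where they differ most is shown because reads can be told apart only where the copies differ. It covers bases 1102 to 1161 of 1242 coding bases, counted in the frame shared by all copies, and capitals mark the 18 positions at which the 5 copies are not all alike.
Serpina1a: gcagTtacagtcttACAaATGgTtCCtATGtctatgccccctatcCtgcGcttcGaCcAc
Serpina1b: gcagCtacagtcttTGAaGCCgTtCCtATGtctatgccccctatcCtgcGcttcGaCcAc
Serpina1c: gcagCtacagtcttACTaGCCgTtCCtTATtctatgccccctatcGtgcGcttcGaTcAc
Serpina1d: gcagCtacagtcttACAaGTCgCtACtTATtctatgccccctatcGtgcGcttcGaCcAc
Serpina1e: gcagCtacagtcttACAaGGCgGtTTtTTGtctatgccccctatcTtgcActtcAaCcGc
Over the whole frame 86 positions differed. The reactive centre loop near the end of the protein, which sets the target protease of a serpin, is known to be the most divergent part of these copies.

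Stretches of 50 bases give a measure of how much of a copy can be told apart. In Serpina1c 73% of such windows were identical to a window of another copy, in Serpina1a 59.9%, in Serpina1d 45.9%, in Serpina1b 44.9% and in Serpina1e 37.9%. Serpina1e and Serpina1b, with the smallest shared parts, had the highest RPKM, and Serpina1c and Serpina1a, with the largest, the lowest. How reads that match several copies were counted is not given in the sources used here, and the part of sequence sharing in the order of the copies was not tested. The transcript of Serpina1a used here is also longer, with 1931 bases against 1366 to 1435 in the others, and its 1417 reads lie near the 1364 of Serpina1c. For Serpina1c, 31.5% of the exon bases also belong to the annotated gene B430119L08Rik. The level of a single copy is therefore uncertain. The 5 together had 8516 reads in the liver and 0 in each other library. This liver sum is uncertain as well, because a shared read may have been counted more than 1 time or left out.

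Upstream of their starts the copies share an identical block of 55 bases, shown in capitals with up to 40 bases before and 20 after it, because it holds the same GTTAAT and forkhead letters in every copy.
Serpina1a, chr12:103863620-103863719, minus strand: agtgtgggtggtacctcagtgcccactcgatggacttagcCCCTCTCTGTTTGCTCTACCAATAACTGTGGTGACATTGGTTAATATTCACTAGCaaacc
Serpina1b, chr12:103738190-103738294, minus strand: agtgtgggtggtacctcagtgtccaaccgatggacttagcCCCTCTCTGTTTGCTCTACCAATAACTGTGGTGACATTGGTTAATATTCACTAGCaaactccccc
Serpina1c, chr12:103904951-103905056, minus strand: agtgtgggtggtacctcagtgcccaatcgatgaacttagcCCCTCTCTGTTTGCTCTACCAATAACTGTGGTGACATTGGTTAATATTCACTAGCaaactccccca
Serpina1d, chr12:103773634-103773728, minus strand: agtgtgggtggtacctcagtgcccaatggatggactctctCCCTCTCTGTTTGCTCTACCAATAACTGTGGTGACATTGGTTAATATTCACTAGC
Serpina1e, chr12:103956940-103957054, minus strand: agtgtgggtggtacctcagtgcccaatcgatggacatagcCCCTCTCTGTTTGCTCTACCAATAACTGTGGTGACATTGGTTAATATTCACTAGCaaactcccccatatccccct
The block ended 1 to 12 bases before the annotated start in the first 4 copies and 63 bases before it in Serpina1e, whose annotated start lies further downstream. With this common block, the levels of the copies ran from 43.8 RPKM in Serpina1a to 103 in Serpina1e.

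Apolipoproteins, the protein parts of lipoprotein particles, were uneven. Apoa2, of high-density lipoprotein, stood at 0.886, 41.2 (38.0 to 44.7) and 1.5 RPKM across heart, liver and kidney, so the liver level was 46.5-fold (25.8 to 93.8) that of the heart and 27.5-fold (17.7 to 45.4) that of the kidney. Its longest transcript begins upstream of the others. On the shorter transcript of 515 bases Apoa2 stood at 65.6 RPKM in the liver and had 0 reads in the kidney library, so its 20 kidney reads lay outside the shorter transcripts. Apoc3, an inhibitor of lipoprotein lipase, stood at 15.3 RPKM (13.0 to 17.9) and had no read elsewhere. Apoa1, the main protein of high-density lipoprotein, stood at 1.89 (1.28 to 2.68) and Apoh, beta-2-glycoprotein I, at 1.42 (0.945 to 2.06), again with 0 reads in both others, and neither was called. Apob, the large protein of very low density lipoprotein, had 5 reads over 13878 bases of exon in the liver library, or 0.022 RPKM, and 0 reads in both others.

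Fibrinogen, the precursor of fibrin clots, is assembled from 3 chains encoded side by side on chromosome 3. Fgb, the beta chain, stood at 29.1 RPKM (27.1 to 31.3) in the liver library, Fgg, the gamma chain, at 6.17 (5.24 to 7.21) and Fga, the alpha chain, at 0.071 (0.019 to 0.182). None of the 3 had a read in the heart or kidney library. The chains thus had 762, 156 and 4 reads, and their intervals do not overlap. Both deposited transcripts of Fga held the same number of reads, 4.

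Of the 8 enzymes and the fatty acid-binding protein Fabp1, 4 were called higher than both other libraries. Fabp1, the intracellular fatty acid carrier of hepatocytes, was the highest of all the genes but Trf, at 0, 152 (144 to 161) and 5.03 RPKM across heart, liver and kidney. Its liver level was at least 357-fold higher than its heart level and 30.3-fold (21.9 to 43.0) its kidney level, which came from 38 reads. Hpd, an enzyme of tyrosine breakdown, stood at 13.6 RPKM (12.1 to 15.2) and had no read elsewhere. Cyp2e1, a cytochrome P450 that oxidizes ethanol, stood at 0.08, 10.5 and 0.671 RPKM, and Cyp3a11, a cytochrome P450 of drug metabolism, at 0, 4.07 and 0. The liver level of Cyp2e1 was 15.6-fold (9.69 to 26.7) its kidney level. Cyp3a11, with a difference of 2.34 log2 units, was the called gene nearest to the threshold.

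The other enzymes were not called. Ass1, which makes argininosuccinate in the urea cycle and is also active in the proximal tubule of the kidney, stood at 2.92, 5.26 and 7.02 RPKM across heart, liver and kidney. Its liver level was 1.80-fold (1.34 to 2.44) higher than its heart level and 1.33-fold (1.06 to 1.68) lower than its kidney level. Tdo2, the first enzyme of tryptophan breakdown, stood at 0, 1.73 and 0.874 RPKM, with a liver level 1.98-fold (1.17 to 3.46) its kidney level. Cps1, the mitochondrial entry enzyme of the urea cycle, had 1 read in the liver and 0 in both others. Tat, which starts tyrosine breakdown, had 0 reads in all 3 libraries. Pck1, the gluconeogenic enzyme that is also active in the proximal tubule, had 0, 0 and 13 reads, so its liver level was at least 4.67-fold lower than its kidney level. The 14 proximal tubule markers summed to 226, 136 and 285 RPKM across heart, liver and kidney, with Gatm, at 212, 130 and 224, making up most of each sum. Of these 14, 4 had 0 reads in the kidney library, namely Slc22a6, Slc22a8, Slc27a2 and Miox, while 9 had more than 3 reads. In the kidney 5 reached 1 RPKM, against 2 in each other library. The kidney level was the highest for 8 of the 14, against 1 for each other library. The part of tubule cells in the kidney reads of Fabp1, Ass1 and Pck1 was not tested.

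Across the set, level and transcript length went together at the low end. The 5 genes with transcripts longer than that of Trf, which has 2313 bases, were Tat, Pck1, Fga, Cps1 and Apob, and they had at most 5 reads each in the liver library. Of the 27 shorter genes 26 had RPKM of at least 1, the exception being Hp. Over the 32 genes other than Trf, Spearman's rho between exon length and liver RPKM was -0.35, given as a description of genes that share 1 library. In the wider lists longer genes were read as well. Among other plasma proteins 6 of 13 longer and 14 of 40 shorter genes had RPKM of at least 1, and among other enzymes and transporters 7 of 16 and 26 of 42. Over all genes the shares were 46.4% of longer and 30.1% of shorter genes. The part of length in the low values of these 5 genes was not tested.

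**Figure D2:**
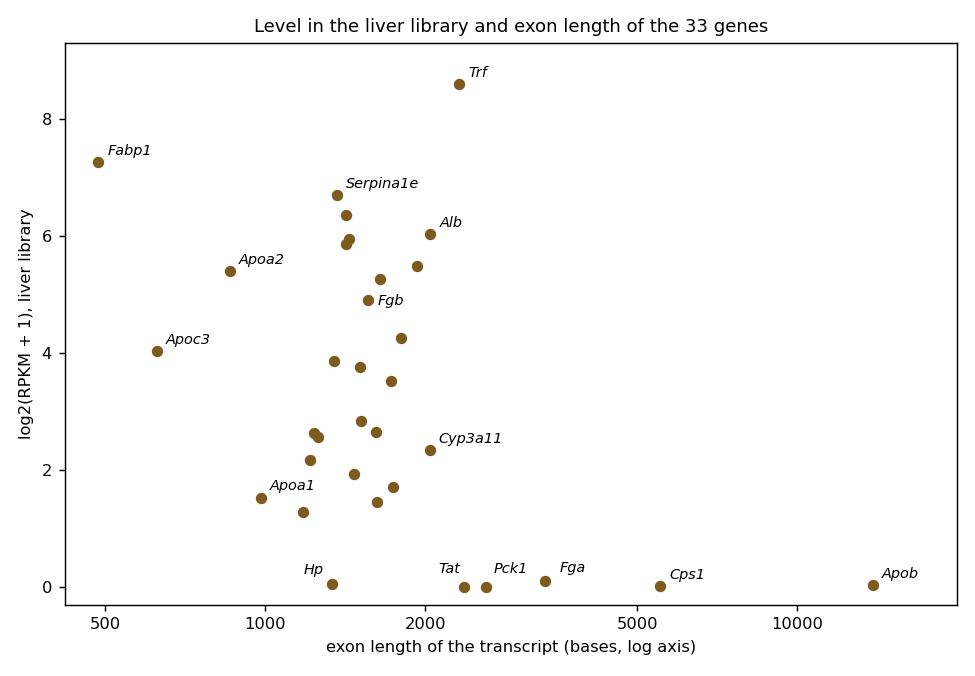
Liver level as log2(RPKM + 1) against exon length in bases on a log axis, 1 point for each of the 33 genes. The 5 genes longer than Trf lie at 0 to 0.10 log2 units, and Hp is the only shorter gene at that level.

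Ordered by liver RPKM, Trf, Fabp1, Serpina1e, Serpina1b and Alb followed each other with intervals that do not overlap. Serpina1d overlapped with Alb above it and with Serpina1c below it, while Alb lay above Serpina1c. Apoa2 likewise overlapped with Serpina1a and with Serpina3k, while Serpina1a lay above Serpina3k. From Gc down to Cyp2e1, and from Fgg down to Apoh, each gene overlapped with the next. A clear step lay between Apoh at 1.42 and Fga at 0.071 RPKM. In all, 23 of the 32 neighbouring pairs overlapped.

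Genes next to the set in the same clusters were uneven too. Beside Alb, Afp, the fetal relative of albumin, stood at 0, 11.5 and 0.062 RPKM across heart, liver and kidney and was called, while Afm, another relative, had 0 reads in all 3. In the apolipoprotein cluster, Apoa4 and Apoa5 had 0 reads in every library beside Apoc3 and Apoa1. Next to fibrinogen, Plrg1, a splicing factor, stood at 23.8, 60.7 and 31.3 RPKM. Beside Ahsg, its relative Fetub stood at 0.133, 0.687 and 0 RPKM, Kng1, which encodes kininogen, at 0, 0.209 and 3.52, and Hrg, which encodes histidine-rich glycoprotein, had 0 reads in all 3. On chromosome 12, Serpina6, Serpina9, Serpina10, Serpina11 and Serpina12 had 0 reads in every library, whereas Serpina3m, next to Serpina3k, stood at 4.41 RPKM in the liver and was called. Serpina3m shares 60 exon bases with Serpina3k, and 17.1% of its windows of 50 bases were identical to a window of another serpin compared. The part of shared reads in the level of Serpina3m was not tested. Serpina3g stood at 0, 46.1 and 12.1 RPKM and Serpina3f at 0, 20.8 and 7.27, neither called against the kidney. In total 2 of these 21 neighbours were called higher than both other libraries, where 3.24% of the 11482 genes were.

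**Figure D3:**
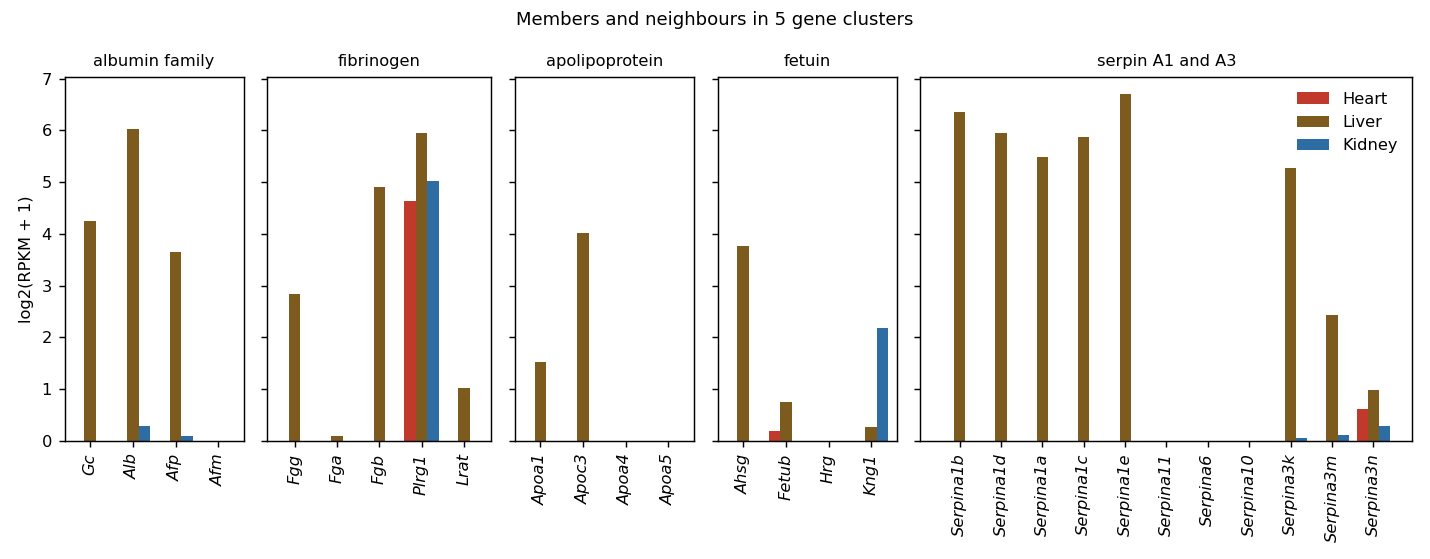
Levels as log2(RPKM + 1) across heart, liver and kidney (bars from 0) of genes in 5 clusters, grouped by cluster. Within each cluster the liver bars run from 0 reads or nearly so (Afm, Fga, Apoa4, Apoa5, Hrg, Serpina6, Serpina10, Serpina11) to levels such as 64.3 RPKM for Alb.

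Other hepatocyte genes were read in part. Of 53 other plasma proteins 9 were called against both other libraries, where 3.24% of the 11482 genes were. In this list 27 had 0 liver reads, as 12448 of all 24453 genes did. The median differences over the list were 0.00 and 0.00 log2 units against heart and kidney. Mup3 and Mup20, major urinary proteins, stood at 38.6 and 28.7 RPKM with 0 reads in both others, and F2, prothrombin, at 7.71 with 0 reads in both others. C8g, a chain of complement component C8, stood at 0.601, 7.16 and 0 RPKM and was called. Not called were Hamp, the iron hormone hepcidin, at 1.42, 5.68 and 0, and F9, coagulation factor IX, at 1.32, 3.05 and 8.47. Genes with 0 reads in all 3 libraries included the mannose-binding lectins Mbl1 and Mbl2, the acute phase proteins Saa1 and Saa2 and the inhibitor chains Itih1, Itih2 and Itih4. These were chosen after their values were seen.

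Of 58 other enzymes and transporters 13 were called higher than in both other libraries, where 3.24% of the 11482 genes were. In the same list 1 was called lower than in both (2.58% of genes), and 18 had 0 liver reads (12448 of all 24453 genes). The median differences over this list were 0.33 and 0.28 log2 units. Bhmt, a methyltransferase of homocysteine, stood at 20.8 RPKM and Mat1a, which makes S-adenosylmethionine, at 8.18, both with 0 reads in the heart and kidney libraries. Cyp2d10 stood at 8.98 with 0 reads in both others and Rgn, regucalcin, at 0, 8.24 and 0.041. Gstp1, a glutathione transferase, stood at 30.9, 271 and 49.9 RPKM, so it was read in every library. Oat, ornithine aminotransferase, at 172, 187 and 120, Glul, glutamine synthetase, at 166, 113 and 69.5, and Gstm1 at 82.9, 91.4 and 48.5 were abundant in all 3 and not called. The asialoglycoprotein receptor chain Asgr1 and the transporters Slc2a2, Slco1b2 and Abcb11 had 0 reads in every library, a choice made after the values were seen.

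None of 17 hepatocyte transcription factors was called above both other libraries in the liver. Only 3.24% of the 11482 genes were, so a count of 0 among 17 says little. Of the 17, 5 reached 1 RPKM in some library and 11 had 0 liver reads, as 12448 of all 24453 genes did. Hnf4a, Foxa2 and Foxa3, regulators of hepatocyte identity, had 0 reads in all 3 libraries, and Foxa1 had 1 in the liver. Cebpb and Cebpa, which macrophages also use, stood at 52.9, 42.7 and 19.7 and at 8.92, 10.6 and 8.86 RPKM across heart, liver and kidney. Nr1h4, the bile acid receptor FXR, was the only other factor with RPKM of at least 1 in the liver, at 1.81 from 66 reads, with 0 reads in both others. At the depth of the liver library, where 3 reads on a transcript of 2000 bases correspond to 0.0896 RPKM, Hnf4a, Foxa2 and Foxa3 were not detectable.

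**Figure D4:**
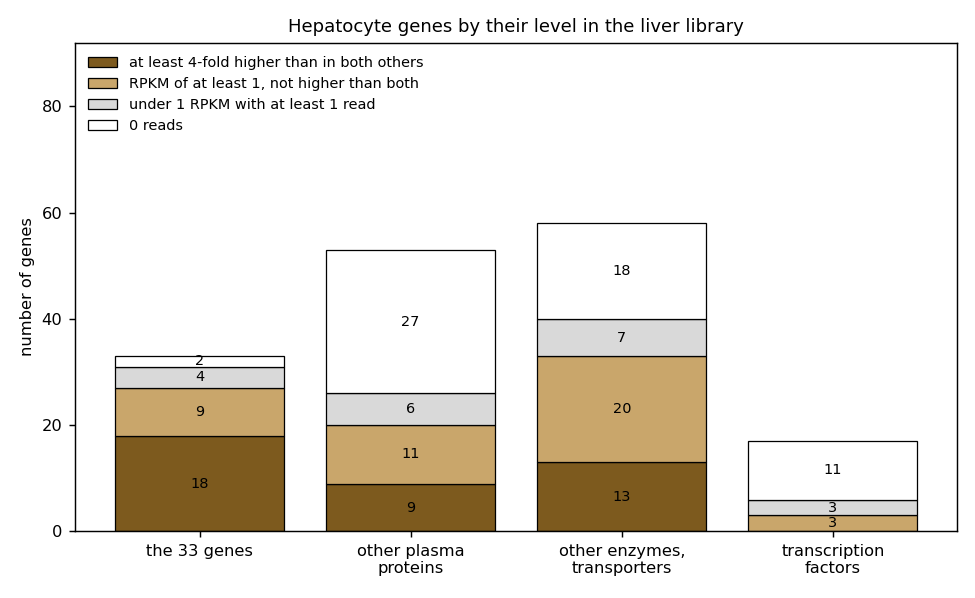
Number of genes in 4 lists (the 33 genes, 53 other plasma proteins, 58 other enzymes and transporters and 17 transcription factors), stacked by their level in the liver library. The part called at least 4-fold higher than in both other libraries holds 18, 9, 13 and 0 genes, and the part with 0 reads 2, 27, 18 and 11.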

How the data were processed

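RNA of sorted macrophages was amplified with a kit for low input and sequenced on Illumina libraries, per the labels' protocols. The deposited values are RPKM, made by the authors over 34711 RefSeq transcripts of mm10 with HOMER analyzeRepeats.pl, per the file headers: exon reads of both strands, 1000000 per library, at most 3 tags per position. The column names say FPKM. CASAVA and STAR come from the submitters' processing notes, whose versions and settings the sources used here do not give.

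The longest NM_ transcript was kept per symbol. RPKM times length fell on multiples of 1 library-specific step, and dividing by it gave reads: every low value checked (up to 500 reads, 6563 in the liver) lay within 0.1 of a whole read. Depth over all transcripts, isoforms counted separately, was 14460622, 16743408 and 15550851 reads for heart, liver and kidney. Differences were taken on log2(RPKM + 1) among 11482 genes with RPKM of at least 1 in some library. The recovery of depth and the calls were run on simulated data, with changes placed only in genes well read in every library. Changed genes without reads in the heart and kidney libraries, like many of the set, were not covered. No sample column was left unused.

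The 33 genes and all lists were chosen with earlier results of these data known. All 33 were described, and of each wider list up to 5 called and 3 uncalled genes with the highest liver RPKM, with the top 2 and unread markers of other cells. Some genes that this rule names are not reported here. Promoters are from RefSeq (GRCm38.p6), transcripts from GENCODE M21. Alternatives covered pseudocount, filter, scaling, transcript, threshold, the Serpina1 copies and read density. Python 3.11.15, pandas 2.3.3, scipy 1.17.1 and Biopython 1.88 were used.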

Additional observations from a re-analysis of the deposited data

How the results depend on the processing

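Against both other libraries, 18 of the 33 genes were called higher in the liver, where 3.24% of all genes tested were. The count ran from 12 with a pseudocount of 5 (1.05% of all genes) to 24 with a threshold of 1 log2 unit (12.2% of all genes). Against the kidney the count of 20 fell to 12 with a pseudocount of 5. Median ratio scaling left 18, 18 and 20 against both, the heart and the kidney. Counts in the wider lists depended on settings: against 9 other plasma proteins, 13 enzymes and transporters, 0 transcription factors and 2 neighbours, a pseudocount of 0.1 gave 20 enzymes and 1 factor, TPM scaling 1 factor, and a pseudocount of 5 gave 2 plasma proteins, 2 enzymes and 0 neighbours. A filter of 5 RPKM gave 8 enzymes and 1 neighbour, a threshold of 3 log2 units 3 plasma proteins, 5 enzymes and 1 neighbour, and a threshold of 1 log2 unit 15, 21, 1 and 5. The cause was not tested beyond the settings themselves. The share of liver reads in the 33 genes, 0.307%, was 0.225% without the 5 Serpina1 copies, 0.286% without Alb and 0.163% without Trf. Without Trf it was 0.00194% in the heart and 0.00312% in the kidney library, an alternative chosen after seeing the data. Of 330 differences of single genes under other settings, 0 called ones changed sign and 168 moved beyond their counting interval. A change of pseudocount cannot turn a sign, nor can scaling where the other library had 0 reads, so the 0 is no test of the calls. The interval was taken on log2(RPKM + 1). Another pseudocount or TPM scaling can therefore move a difference beyond it by the change of scale alone. The small difference of Trf against the kidney changed sign, from 0.01 to -0.11. The median of all genes, 0.16 for liver minus heart, was 0.02 with TPM and 0.00 with median ratio scaling, and -0.04 for liver minus kidney was -0.15 and -0.06. No paired analysis was possible because each tissue has 1 library, and no library could be left out. For a transcript of 2000 bases, levels under 0.0896 RPKM (3 reads) in the liver were not detectable.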

Other observations

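Major urinary proteins, small carriers of pheromones that mouse hepatocytes secrete, were read as a family, which was chosen after its values were seen. Of 21 Mup genes 19 had RPKM of at least 1 in the liver library, 0 in the heart and 0 in the kidney library. At the 4-fold threshold 17 were called against both others, where 3.24% of the 11482 genes were. Mup3 stood at 38.6 RPKM, Mup20 at 28.7, Mup7 at 12 and Mup15 at 11.9, each with 0 reads in both other libraries. Many Mup genes are similar tandem copies, so reads may be shared among them and the count is not one of independent genes. How alike the Mup genes are was not measured here.

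Cytochromes P450 were read unevenly, again a family chosen after its values were seen. Of 93 Cyp genes 15 had RPKM of at least 1 in the liver library and 60 had 0 reads there, as 12448 of all 24453 genes did. In this family 5 were called higher than in both others, where 3.24% of the 11482 genes were. Cyp4b1 stood at 1.68, 30.6 and 0.208 RPKM across heart, liver and kidney, above Cyp2e1 at 10.5 and Cyp2d10 at 8.98 in the liver. Cyp20a1, at 59.9, 32.8 and 27.8 RPKM, and Cyp4v3, at 45.1, 22.4 and 32.1, were read in all 3 libraries.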
